A study of Glycine max with 12 samples.

Results

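Cadmium (Cd) was examined in soybean roots that carried the bacterium OP: 3 libraries of roots with Cd and OP (Cd+OP) were compared with 3 libraries of control roots with OP (control+OP), 6 of the 12 libraries of the series. OP stands for Oceanobacillus picturae in the series title. All 4 groups (Cd+OP, control+OP, Cd and control, 3 libraries each) are roots of Glycine max cultivar Williams 82, with no transgene or mutation named, and total RNA was sequenced. A dose of 70 mg/L Cd stands on every sample, the control roots included, so it cannot be tied to a group. Plant age, exposure time and the way OP was given are not stated in the sources used here. The members are the 30340 genes, of 49128 in the table, whose mean over the 12 libraries reached 1 FPKM. FPKM is the authors' level per gene, in fragments scaled to transcript length and library size. Genes high in a single group could reach this mean through that group alone.

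Cadmium has no known use in plants. It enters roots through carriers of essential metals, binds thiols, displaces other metals and brings oxidative stress, and plants hold it by chelating it with glutathione-derived peptides and by pumping it into vacuoles or into the xylem. Legume roots also form nodules with nitrogen-fixing rhizobia. In nodules leghaemoglobin carries oxygen, and plant proteins line the peribacteroid membrane around the bacteria.

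Total counts were 50444683, 53797363 and 52866221 in Cd+OP and 51179042, 52426250 and 50366888 in control+OP, within the range of all 12 libraries (49904227 to 57693211). Across genes the Cd+OP libraries correlated with each other at 0.989 to 0.991, the control+OP libraries at 0.991, and Cd+OP with control+OP at 0.919 on average. Ribosomal RNA genes took 0.317, 0.706 and 0.368% of counts in Cd+OP, against 0.296 to 0.530% in the other libraries, so Cd+OP replicate 2 was highest. Separate plants are not named for the 3 libraries of a group, and the p-values hold only for the spread seen between these libraries. Of the lists that mark other tissue, photosynthesis genes summed to 208.1 to 209.1 FPKM in Cd+OP and 217.4 to 223.7 FPKM in control+OP over 48 tested genes, and 140 of the 188 listed were under the filter. Of those 188 genes, 18 were at 0 in every Cd+OP library and 20 in every control+OP library. Of 14 tested Casparian strip and suberin genes, which mark root tissue, GLYMA_12G210400 was the most abundant, with 95.7, 90.1 and 94.4 FPKM in Cd+OP, against 107, 105 and 112 FPKM in control+OP. The other 13 averaged 0.908 to 6.28 FPKM in Cd+OP and 1.003 to 5.15 FPKM in control+OP. Nodulation genes, which mark nodules, differed between the groups and are described first.

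Of the 30340 genes tested, 20229 (66.7%) passed edgeR's quasi-likelihood test with Benjamini-Hochberg adjustment (threshold 0.05). Of these, 10183 were higher (33.6%) and 10046 lower (33.1%) in Cd+OP, so that 50.3% of calls were higher, against 57.3% with limma on log2(FPKM + 1) and 57.6% with limma on log2(FPKM + 0.1). Most changes were small, and 3733 genes (12.3%) were called and at least 2-fold different, 1828 higher (6.03%) and 1905 lower (6.28%). At the far end the split was uneven: 26 called genes were at least 3 log2 units higher and 183 at least 3 log2 units lower. Counts of list members below are to be read against the 33.6% and 33.1% of all genes tested. In bulk RNA, fewer cells of a type and less RNA per cell cannot be told apart. In the text below, changes are log2 fold changes of Cd+OP over control+OP ± SE from the fit, and each named gene was chosen partly for groups that do not overlap or for a small adjusted p. For genes chosen that way, statements that the groups were separate restate the choice and are no added support. GLYMA_20G191200, GMN16, GLYMA_11G121700, GLYMA_05G121600, GLYMA_19G200000, DGD2, GLYMA_14G140400, GLYMA_04G079200 and MIR159 are named outside that rule and were chosen after their values were seen. A gene near 0 FPKM in a group can have an SE that understates the spread.

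Genes of nodulation led the falls in Cd+OP. Of the 12 lowest genes that met the naming rule, 8 were nodulation genes, and their levels in Cd+OP were a few FPKM or less. GLYMA_13G364400, annotated to nodulation, had 3.37, 2.997 and 3.46 FPKM in Cd+OP, against 206, 201 and 212 FPKM in control+OP. Its change was -6.05 ± 0.21, edgeR adjusted p = 5.49e-18. GLYMA_20G024200, also annotated to nodulation, had 2.41, 3.28 and 3.52 FPKM in Cd+OP, against 201, 189 and 188 FPKM in control+OP (-6.04 ± 0.19, edgeR adjusted p = 1.14e-18). In both genes every control+OP library lay far above every Cd+OP library.

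The oxygen carriers of nodules fell with them. LGB1 (GLYMA_10G198800), a leghaemoglobin, had 3.15, 2.63 and 2.56 FPKM in Cd+OP, against 127, 121 and 116 FPKM in control+OP (-5.51 ± 0.15, edgeR adjusted p = 3.27e-20). LBA (GLYMA_10G199100), another leghaemoglobin, had 0.569, 0.574 and 0.708 FPKM in Cd+OP, against 32.9, 33.3 and 33.6 FPKM in control+OP (-5.80 ± 0.24, edgeR adjusted p = 1.31e-16). GLYMA_10G199000, which lies between them in the numbering and is annotated as an oxygen carrier of nodulation, had 1.01, 0.6496 and 1.15 FPKM in Cd+OP, against 61.1, 58.3 and 58.02 FPKM in control+OP (-6.03 ± 0.21, edgeR adjusted p = 5.81e-18). LBA and GLYMA_10G199000 averaged under 1 FPKM in every group but control+OP. They had to be lower in Cd+OP, and their p-values are only descriptive. All 3 genes had groups that did not overlap. They are neighbours with the same annotation on chromosome 10, and no source used here gives how reads were split between such copies, so their single values are uncertain. A similar fall was seen in GLYMA_20G191200, an oxygen carrier on chromosome 20, with a mean of 2.55 FPKM in Cd+OP and 96.4 FPKM in control+OP (log2 -5.31).

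Of 9 tested genes annotated to the peribacteroid membrane, 7 were called lower, 1 was called higher (GLYMA_19G200000, annotated as a galactolipid synthase like DGD2, log2 0.21) and 1 was not called (DGD2, GLYMA_18G228900, log2 -0.20). GLYMA_15G045000 had 2.401, 2.21 and 2.44 FPKM in Cd+OP, against 163, 154 and 152 FPKM in control+OP (-6.13 ± 0.22, edgeR adjusted p = 8.02e-18). GLYMA_08G120100, a channel of that membrane, had 0.915, 0.651 and 0.907 FPKM in Cd+OP, against 43.1, 43.5 and 42.4 FPKM in control+OP (-5.77 ± 0.21, edgeR adjusted p = 1.41e-17). GLYMA_14G052400 had 0.5999, 0.992 and 1.01 FPKM in Cd+OP, against 65.2, 69.4 and 62.4 FPKM in control+OP (-6.22 ± 0.32, edgeR adjusted p = 1.45e-14). None of these 3 genes had overlapping groups. GLYMA_08G120100 and GLYMA_14G052400 averaged under 1 FPKM in every group but control+OP. They had to be lower in Cd+OP, and their p-values are only descriptive. GMN16 (GLYMA_02G265200), which carries the same membrane term, averaged 2.33 FPKM in Cd+OP and 59.2 FPKM in control+OP (log2 -4.73). The lowest change that met the rule was that of GLYMA_19G074000, annotated to nodulation, with 0.197, 0.1199 and 0 FPKM in Cd+OP, against 10.3, 9.02 and 10.6 FPKM in control+OP (-6.58 ± 0.38, edgeR adjusted p = 1.23e-13). One of its Cd+OP libraries was at 0, so the size of that change depends on the fit. GLYMA_19G074000 also averaged under 1 FPKM in every group but control+OP. It had to be lower in Cd+OP, and its p-value is only descriptive.

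Other genes outside the nodulation list shared this pattern. GLYMA_15G260700, an aspartic protease, had 0.718, 0.868 and 0.817 FPKM in Cd+OP, against 45.98, 46.97 and 46.5 FPKM in control+OP (-5.92 ± 0.27, edgeR adjusted p = 8.40e-16). GLYMA_11G101900, a P-type calcium pump, had 0.314, 0.374 and 0.304 FPKM in Cd+OP, against 19.2, 16.7 and 18.03 FPKM in control+OP (-5.82 ± 0.20, edgeR adjusted p = 7.06e-18). The sulfate transporter GLYMA_11G238500 had 0.346, 0.277 and 0.1203 FPKM in Cd+OP, against 13.1, 12.1 and 13.7 FPKM in control+OP (-5.76 ± 0.28, edgeR adjusted p = 3.98e-15). Each was near 0 in Cd+OP and well above it in all control+OP libraries. GLYMA_05G051500, a serine protease annotated to the response to symbiotic fungi, fell by 5.73 on the log2 scale (0.523, 0.276 and 0.484 FPKM in Cd+OP, against 21.3, 22.03 and 21.8 FPKM in control+OP). All of these genes averaged under 1 FPKM in every group but control+OP. They passed the filter through control+OP alone, so they had to be lower in Cd+OP, and their p-values are only descriptive.

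Over the whole nodulation and oxygen carrier list, 23 of 28 tested genes were called lower, 3 higher and 2 were not called, with a median log2 change of -4.37 against 0.01 over all genes tested. Of the 28, 6 averaged at least 1 FPKM in control+OP only, and these had to differ. Further genes, among them GLYMA_05G121600 and GLYMA_18G018900, also reached the filter only with their control+OP values, so the count is a description. The list summed to 671.5 to 698.4 FPKM in Cd+OP, 1816 to 1888 FPKM in control+OP, 500.1 to 516.4 FPKM in Cd and 1327 to 1418 FPKM in control. In 20 of the 28 genes the lowest control+OP library exceeded all 9 other libraries. In 16 of them the 9 other libraries were all under 5 FPKM while control+OP was above it. LGB1 was near 0 in the groups without OP too, and averaged 0.999 ± 0.494 FPKM in Cd and 1.397 ± 0.365 FPKM in control (SD). Whether roots in control+OP bore nodules is not given in the labels. The part of nodule tissue in the other differences between Cd+OP and control+OP was not tested.

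**Figure D1:**
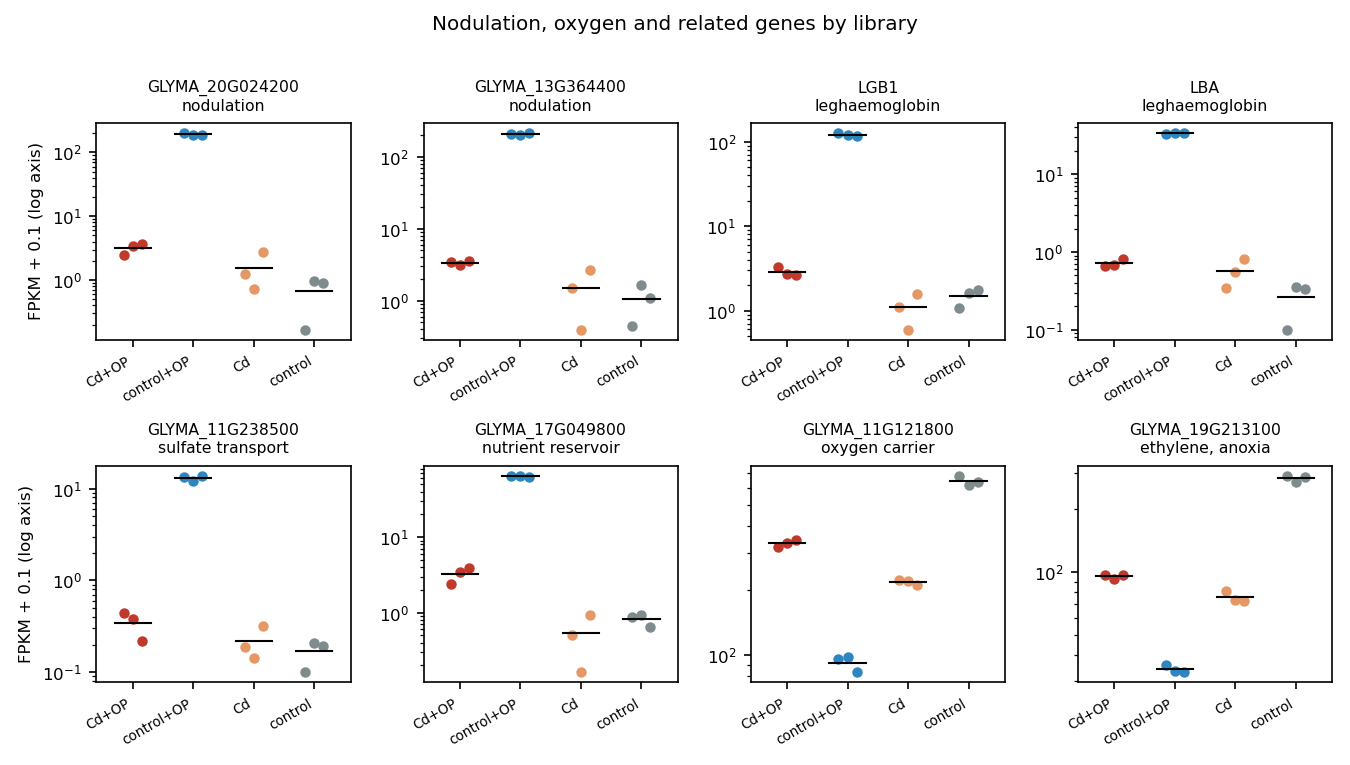
FPKM + 0.1 on a log axis for 8 genes in each of the 12 libraries (points) with the group mean (line), in the order Cd+OP, control+OP, Cd and control. The nodulation genes, the leghaemoglobins LGB1 and LBA, the sulfate transporter and the nutrient reservoir gene were high in control+OP alone. In each of them the Cd+OP mean was far below control+OP, yet above the means of the groups without OP. The oxygen carrier GLYMA_11G121800 and the ethylene factor GLYMA_19G213100 were lowest in control+OP and highest in control.

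Of 4 tested oxygen carriers without a nodulation term, 2 rose, 1 fell (GLYMA_14G140400, log2 -0.20) and 1 was not called (GLYMA_04G079200, log2 0.11). GLYMA_11G121800, a heme protein with oxygen carrier annotation and no nodulation term, had 319, 331 and 342 FPKM in Cd+OP, against 95.6, 97.5 and 83.1 FPKM in control+OP (1.77 ± 0.045, edgeR adjusted p = 1.55e-20). The groups did not overlap. Its neighbour GLYMA_11G121700, with the same terms, averaged 3.88 FPKM in Cd+OP and 1.10 FPKM in control+OP (log2 1.72). Genes of low oxygen and fermentation were divided, with 17 of 46 higher and 17 lower and a median log2 change of -0.03. The ethylene-pathway transcription factor GLYMA_19G213100, annotated to the response to anoxia, rose, with 97.3, 92.998 and 96.5 FPKM in Cd+OP, against 35.7, 33.4 and 32.98 FPKM in control+OP (1.42 ± 0.044, edgeR adjusted p = 7.31e-19). Alcohol dehydrogenase, which regenerates NAD+ in fermentation, was higher in the genes GLYMA_04G213900 (30.1, 30.97 and 30.9 FPKM in Cd+OP, against 13.5, 12.8 and 12.05 FPKM in control+OP; log2 1.19 ± 0.042) and GLYMA_14G121200 (log2 0.95 ± 0.043). Both had groups that did not overlap, and for both the levels in Cd and control were higher than in either OP group.

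Protease inhibitors, proteins that block digestive and microbial proteases, rose in Cd+OP as a group of neighbours on chromosome 9. Of 51 tested inhibitors 32 were higher (62.7%) and 10 lower (19.6%), with a median log2 change of 0.67. GLYMA_09G163200 had 46.2, 45.3 and 44.7 FPKM in Cd+OP, against 6.05, 7.34 and 7.22 FPKM in control+OP (2.65 ± 0.069, edgeR adjusted p = 2.97e-20). GLYMA_09G163300 had 88.8, 86.02 and 79.6 FPKM in Cd+OP, against 13.8, 12.8 and 17.9 FPKM in control+OP (2.44 ± 0.072, edgeR adjusted p = 2.57e-19). In each case all Cd+OP libraries lay above all control+OP libraries. On another chromosome, GLYMA_08G341400 had 246, 246 and 238 FPKM in Cd+OP, against 105, 100.3 and 103 FPKM in control+OP (1.17 ± 0.030, edgeR adjusted p = 2.14e-20), also without overlap. The stretch on chromosome 9 from 38692452 to 38807557, in the coordinates of the deposited table, held 8 tested genes in a row that were at least 2-fold higher, with a median log2 change of 2.08. This stretch and those described further on were found after the values were seen. Neighbouring inhibitors may share reads, so the value of a single copy is uncertain.

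Genes annotated to fatty acid binding and systemic acquired resistance, a term for defense that spreads through the plant, moved in both directions, with 20 of 37 higher (54.1%) and 14 lower (37.8%). GLYMA_18G033200 had 365, 373 and 359.9 FPKM in Cd+OP, against 66.5, 71.5 and 82.1 FPKM in control+OP (2.24 ± 0.050, edgeR adjusted p = 1.43e-21). It lies in a row of 9 tested genes on chromosome 18 (2507213 to 2549732), all with the fatty acid binding term and at least 2-fold higher, with log2 changes of 1.27 to 2.24. On chromosome 11, GLYMA_11G224900 had 59.5, 56.3 and 58.7 FPKM in Cd+OP, against 9.11, 10.8 and 13.8 FPKM in control+OP (2.30 ± 0.084, edgeR adjusted p = 1.41e-17), and its neighbour GLYMA_11G225000 changed by 1.78 ± 0.056. All of these named genes had groups that did not overlap. GLYMA_07G141500, with the same terms, fell instead, with 45.5, 47.8 and 46.1 FPKM in Cd+OP, against 191, 188 and 185 FPKM in control+OP (-2.09 ± 0.070, edgeR adjusted p = 2.70e-18). Rows of neighbours again leave the single values uncertain.

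Other genes at the top of the comparison came from several functions. GLYMA_11G158200, a transcriptional regulator annotated to circadian rhythm, had 11.8, 10.7 and 10.9 FPKM in Cd+OP, against 2.02, 1.52 and 1.34 FPKM in control+OP (2.70 ± 0.11, edgeR adjusted p = 6.10e-17). GLYMA_15G082200, a cysteine protease, had 112, 115 and 116 FPKM in Cd+OP, against 18.4, 18.6 and 19.7 FPKM in control+OP (2.53 ± 0.037, edgeR adjusted p = 1.93e-24). GLYMA_17G147400, an extracellular protein annotated to morphogenesis, had 352, 355 and 348 FPKM in Cd+OP, against 63.7, 60.1 and 74.9 FPKM in control+OP (2.33 ± 0.050, edgeR adjusted p = 7.22e-22). All 3 were higher in every Cd+OP library than in any control+OP library. GLYMA_10G201700, a mannan synthase of the Golgi that makes a wall polysaccharide, changed by 2.57 ± 0.075 (22.1, 23.005 and 22.01 FPKM in Cd+OP, against 3.22, 3.49 and 4.04 FPKM in control+OP). GLYMA_02G008200, a DNA-binding transcription factor, had 31.6, 26.9 and 30.99 FPKM in Cd+OP, against 3.58, 6.15 and 3.77 FPKM in control+OP, a change of 2.64 ± 0.18. GLYMA_15G223900, an oxidoreductase that binds FMN, changed by 2.43 ± 0.082, and the protein phosphatase GLYMA_17G029200 by 2.30 ± 0.13. The gene GLYMA_10G045200, annotated to the response to chitin, had 16.1, 14.1 and 15.8 FPKM in Cd+OP, against 3.15, 3.18 and 2.78 FPKM in control+OP (2.25 ± 0.17, edgeR adjusted p = 1.33e-11), and its groups did not overlap either.

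**Figure D2:**
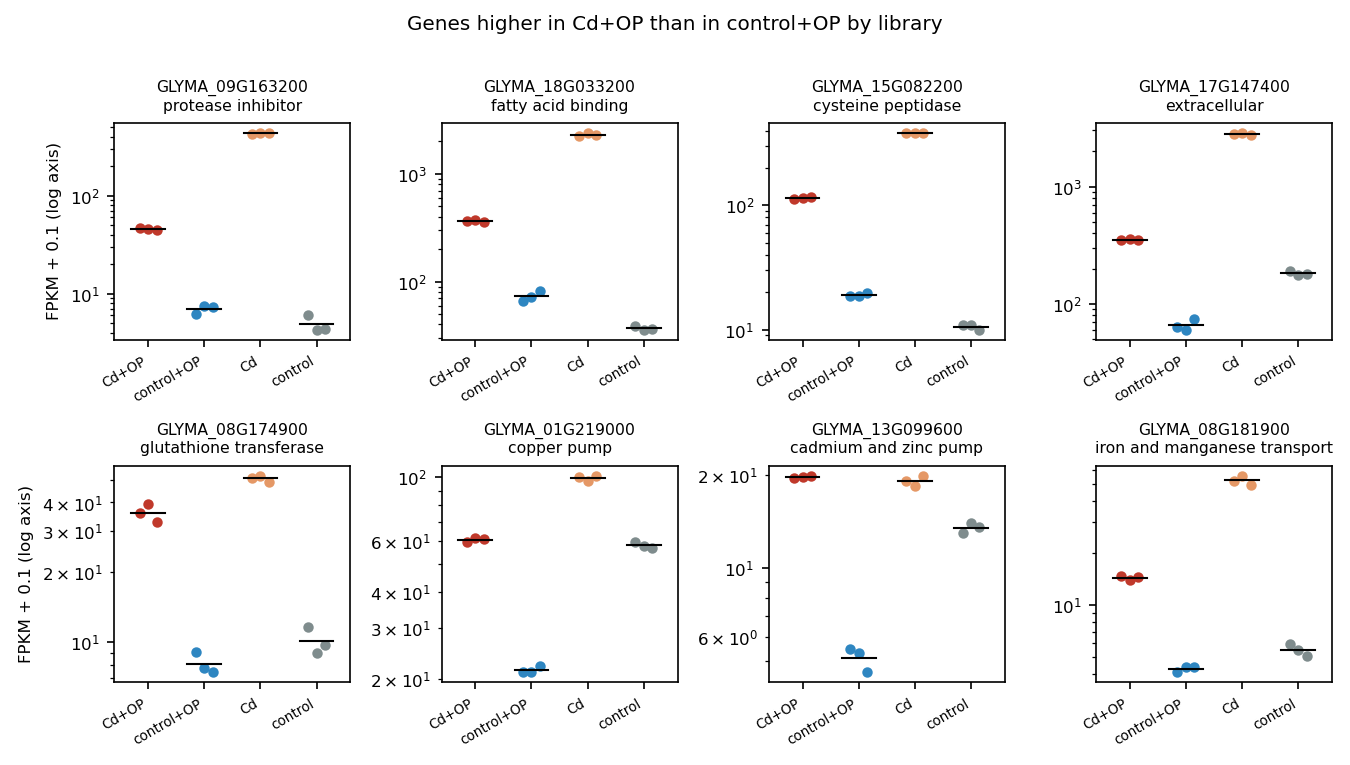
FPKM + 0.1 on a log axis for 8 genes higher in Cd+OP than in control+OP, in each of the 12 libraries (points) with the group mean (line). In every panel the 3 Cd+OP libraries lie above the 3 control+OP libraries, and for the protease inhibitor, fatty acid binding, cysteine peptidase and extracellular genes the Cd libraries lie far above both.

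Metal handling changed gene by gene. Of 105 tested metal ion transport genes, 29 were higher (27.6%) and 33 lower (31.4%), no more than among all genes, with a median log2 change of -0.07. The largest rise among the 3 members with the smallest adjusted p was that of GLYMA_13G099600, annotated as an ATP-driven exporter of cadmium and zinc, with 19.5, 19.5 and 19.7 FPKM in Cd+OP, against 5.38, 5.22 and 4.501 FPKM in control+OP (1.88 ± 0.054, edgeR adjusted p = 1.82e-19). GLYMA_01G219000, a P-type copper pump, had 59.4, 61.4 and 61.1 FPKM in Cd+OP, against 20.97, 21.1 and 22.002 FPKM in control+OP (1.43 ± 0.034, edgeR adjusted p = 4.93e-21). GLYMA_08G181900, a carrier annotated to manganese homeostasis and to the sequestering of iron, had 14.6, 13.8 and 14.3 FPKM in Cd+OP, against 3.99, 4.296 and 4.29 FPKM in control+OP (1.69 ± 0.084, edgeR adjusted p = 6.42e-15). For these 3 genes each Cd+OP library exceeded each control+OP library. Another carrier, GLYMA_05G121600, with iron, manganese and nodulation terms, averaged 1.504 FPKM in Cd+OP and 28.1 FPKM in control+OP (log2 -4.29) and belongs to the nodulation list as well.

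Genes annotated to the response to cadmium or to metal chelation leaned higher in Cd+OP than in control+OP, but not in Cd against control. Of 30 tested, 17 were higher (56.7%) and 7 lower (23.3%), with a median log2 change of 0.28, and the list summed to 798.7 to 811.1 FPKM in Cd+OP and 607.5 to 642.7 FPKM in control+OP. In Cd against control 7 were higher and 15 lower, with a median of -0.265, beside 37.6% and 38.7% of all genes tested. There the list summed to 478.0 to 493.6 FPKM in Cd and 896.6 to 977.6 FPKM in control, so both OP groups lay below control. GLYMA_07G125600, a nuclear speck protein annotated to cadmium and oxidative stress, had 47.01, 46.02 and 43.3 FPKM in Cd+OP, against 24.9, 24.6 and 24.8 FPKM in control+OP (0.80 ± 0.057, edgeR adjusted p = 5.83e-12). GLYMA_02G026300, a DNA-binding protein annotated to cadmium and several hormones, had 22.04, 22.8 and 22.8 FPKM in Cd+OP, against 10.8, 12.7 and 11.4 FPKM in control+OP (0.88 ± 0.063, edgeR adjusted p = 7.80e-12). GLYMA_08G178100, a nitronate monooxygenase with a cadmium response term, changed by 0.97 ± 0.081. The groups of these 3 genes were separate, and only 2 of the 30 genes were called and at least 2-fold higher. Iron deficiency genes showed no lean, with 22 of 78 higher and 22 lower and a median log2 change of 0.07. In that list GLYMA_08G005900, an NADPH oxidase with a ferric-chelate reductase term, fell (16.1, 16.7 and 17.1 FPKM in Cd+OP, against 43.7, 42.1 and 41.2 FPKM in control+OP; log2 -1.42 ± 0.041), while the ubiquitin ligases annotated to iron homeostasis GLYMA_17G096900 and GLYMA_07G093700 rose by 0.98 ± 0.057 and 0.64 ± 0.045.

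Glutathione transferases, which join glutathione to reactive compounds, were mostly higher. Of 69 tested 36 were higher (52.2%) and 15 lower (21.7%), with a median log2 change of 0.33, and their sum was 2069 to 2144 FPKM in Cd+OP and 1540 to 1572 FPKM in control+OP. GLYMA_10G192900 had 150.3, 155 and 145 FPKM in Cd+OP, against 47.3, 41.5 and 43.2 FPKM in control+OP (1.70 ± 0.044, edgeR adjusted p = 2.97e-20). GLYMA_08G174900 had 35.96, 39.1 and 32.8 FPKM in Cd+OP, against 8.97, 7.62 and 7.32 FPKM in control+OP (2.10 ± 0.084, edgeR adjusted p = 9.19e-17). GLYMA_11G198500 changed by 1.52 ± 0.062, and none of the 3 had overlapping groups. In sulfur uptake and glutathione synthesis 26 of 78 were higher and 35 lower (44.9%). There GLYMA_10G242600, an enzyme that activates sulfate, rose (168, 173 and 170.1 FPKM in Cd+OP, against 88.2, 82.01 and 84.7 FPKM in control+OP; log2 0.93 ± 0.031). The sulfate transporters GLYMA_09G188700 and GLYMA_18G018900 fell. GLYMA_09G188700 had 1.16, 0.785 and 1.07 FPKM in Cd+OP, against 22.6, 24.99 and 23.6 FPKM in control+OP (log2 -4.63 ± 0.17). GLYMA_18G018900, also a nodulation gene, changed by -3.88 ± 0.17. Both reached the filter only with their control+OP values. They had to be lower in Cd+OP, so their falls are a description.

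Enzymes that remove peroxide and superoxide were more often lower than higher. Of 50 antioxidant genes 24 were lower (48.0%), 7 higher (14%) and none was called and 2-fold different in either direction. The list summed to 1589 to 1620 FPKM in Cd+OP, 1923 to 1975 FPKM in control+OP and 1418 to 1518 FPKM in control. GLYMA_12G073100, an ascorbate peroxidase, which clears hydrogen peroxide with ascorbate, had 296, 295 and 296 FPKM in Cd+OP, against 460.2, 443 and 441 FPKM in control+OP (-0.67 ± 0.028, edgeR adjusted p = 1.95e-16). GLYMA_19G190800, a thioredoxin peroxidase, had 23.2, 23.5 and 24.1 FPKM in Cd+OP, against 40.5, 42.3 and 39.99 FPKM in control+OP (-0.87 ± 0.058, edgeR adjusted p = 1.69e-12). SODB (GLYMA_20G196900), a superoxide dismutase of plastids, had 228, 227 and 229.6 FPKM in Cd+OP, against 316, 304 and 297 FPKM in control+OP (-0.50 ± 0.033, edgeR adjusted p = 2.00e-12). In all 3 the Cd+OP libraries lay below the control+OP libraries. Class III peroxidases, secreted enzymes of wall stiffening and peroxide turnover, went both ways, with 47 of 114 higher (41.2%) and 51 lower (44.7%). GLYMA_17G052900 rose (77.5, 73.95 and 73.3 FPKM in Cd+OP, against 27.98, 26.9 and 27.3 FPKM in control+OP; log2 1.38 ± 0.038), and GLYMA_17G163200 (26.4, 28.9 and 28.6 FPKM in Cd+OP, against 79.3, 81.7 and 79.2 FPKM in control+OP; log2 -1.59 ± 0.041) and GLYMA_03G007700 (log2 -1.97 ± 0.057) fell. A row of 5 neighbouring peroxidase genes on chromosome 3 (4704295 to 4772715) was at least 2-fold higher, with a median log2 change of 1.71.

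Growth genes were more often lower than higher in Cd+OP, most by small amounts. Of 488 tested cell division genes 270 were lower (55.3%) and 88 higher (18.0%), with a median log2 change of -0.35. The tubulin-type gene GLYMA_04G023900, a structural GTPase of microtubules, had 22.95, 22.8 and 24.3 FPKM in Cd+OP, against 65.9, 69.5 and 64.8 FPKM in control+OP (-1.59 ± 0.046, edgeR adjusted p = 1.96e-19). GLYMA_06G024100, of the same kind, had 29.2, 25.9 and 29.4 FPKM in Cd+OP, against 82.1, 78.9 and 80.4 FPKM in control+OP (-1.59 ± 0.047, edgeR adjusted p = 3.39e-19), and GLYMA_08G115100 changed by -1.03 ± 0.032. Their groups did not overlap. Of 145 DNA replication genes 87 were lower (60%) and 22 higher (15.2%), with a median of -0.44. The 3 of that list with the smallest adjusted p went against its lean: GLYMA_05G076800, a mitochondrial single-stranded DNA binding protein, rose (4.53, 4.43 and 4.17 FPKM in Cd+OP, against 1.16, 1.23 and 1.18 FPKM in control+OP; log2 1.81 ± 0.072), as did the helicase of DNA repair GLYMA_08G083400 (log2 1.53 ± 0.074) and the DNA ligase IV gene GLYMA_15G166700 (log2 0.98 ± 0.050).

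Histones and ribosomal proteins were widely lower in Cd+OP than in control+OP, by small amounts. Of 95 histone genes 62 were lower (65.3%) and 10 higher (10.5%), with a median log2 change of -0.27. GLYMA_20G083800, a nucleosome histone, had 42.02, 42.9 and 39.96 FPKM in Cd+OP, against 67.99, 64.9 and 60.6 FPKM in control+OP (-0.71 ± 0.050, edgeR adjusted p = 6.54e-12). GLYMA_11G075500, annotated to chromosome condensation and water deprivation, rose instead, with 45.3, 45.8 and 45.6 FPKM in Cd+OP, against 26.4, 24.6 and 22.7 FPKM in control+OP (0.82 ± 0.048, edgeR adjusted p = 1.63e-13). Of 583 ribosomal protein genes 371 were lower (63.6%) and 42 higher (7.20%), with a median of -0.26. Only 6 were called and at least 2-fold lower. The list summed to 28064 to 28570 FPKM in Cd+OP and 32549 to 33285 FPKM in control+OP. In control it summed to 26750 to 28444 FPKM, which overlaps Cd+OP. GLYMA_10G048600, of the cytosolic large subunit, had 144, 148 and 154 FPKM in Cd+OP, against 256, 247 and 252 FPKM in control+OP (-0.83 ± 0.032, edgeR adjusted p = 3.68e-17). The ribosomal gene GLYMA_18G259000 rose, with 47.6, 47.4 and 44.3 FPKM in Cd+OP, against 22.02, 21.7 and 21.1 FPKM in control+OP, a change of 1.03 ± 0.046. The named genes of both lists had separate groups.

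Cell wall genes were lower for the most part. Of 109 wall loosening genes, which cut or remodel wall polymers as cells expand, 71 were lower (65.1%) and 24 higher (22.0%), with a median log2 change of -0.40. GLYMA_08G147900, a pectinesterase, had 2.14, 1.99 and 2.22 FPKM in Cd+OP, against 12.8, 13.4 and 12.1 FPKM in control+OP (-2.67 ± 0.12, edgeR adjusted p = 9.82e-16). GLYMA_06G128500, of the same enzyme family, changed by -1.26 ± 0.056. GLYMA_13G095000, a xyloglucan transferase, rose, with 137, 140.3 and 139 FPKM in Cd+OP, against 70.98, 77.1 and 75.4 FPKM in control+OP (0.82 ± 0.037, edgeR adjusted p = 8.99e-16). The Cd+OP and control+OP libraries of these genes did not overlap. Lignin, the polymer of xylem walls, had 23 of 28 tested genes lower (82.1%) and 1 higher (3.57%), with a median of -0.62. The summed level of the list moved little, with 518.5 to 535.3 FPKM in Cd+OP and 537.7 to 552.9 FPKM in control+OP. The 1 higher gene, the cinnamyl-alcohol dehydrogenase GLYMA_14G221200, was the most abundant of those named, with 205, 204 and 210.3 FPKM in Cd+OP, against 136, 134 and 128 FPKM in control+OP (0.56 ± 0.035, edgeR adjusted p = 4.67e-13). The laccase-type oxidases GLYMA_14G056100 and GLYMA_07G133900 fell. GLYMA_14G056100 had 2.503, 2.401 and 2.17 FPKM in Cd+OP, against 7.08, 8.03 and 7.27 FPKM in control+OP (log2 -1.73 ± 0.12). GLYMA_07G133900 changed by -3.52 ± 0.29. It averaged under 1 FPKM in every group but control+OP, so it had to be lower in Cd+OP. A row of 5 genes on chromosome 12 (5089679 to 5114869), of which 4 are annotated to secondary wall biogenesis, was at least 2-fold lower, with a median of -1.47. Casparian strip and suberin genes were divided, with 3 of 14 higher and 4 lower, and without Cd+OP replicate 2 only 1 was called higher.

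**Figure D3:**
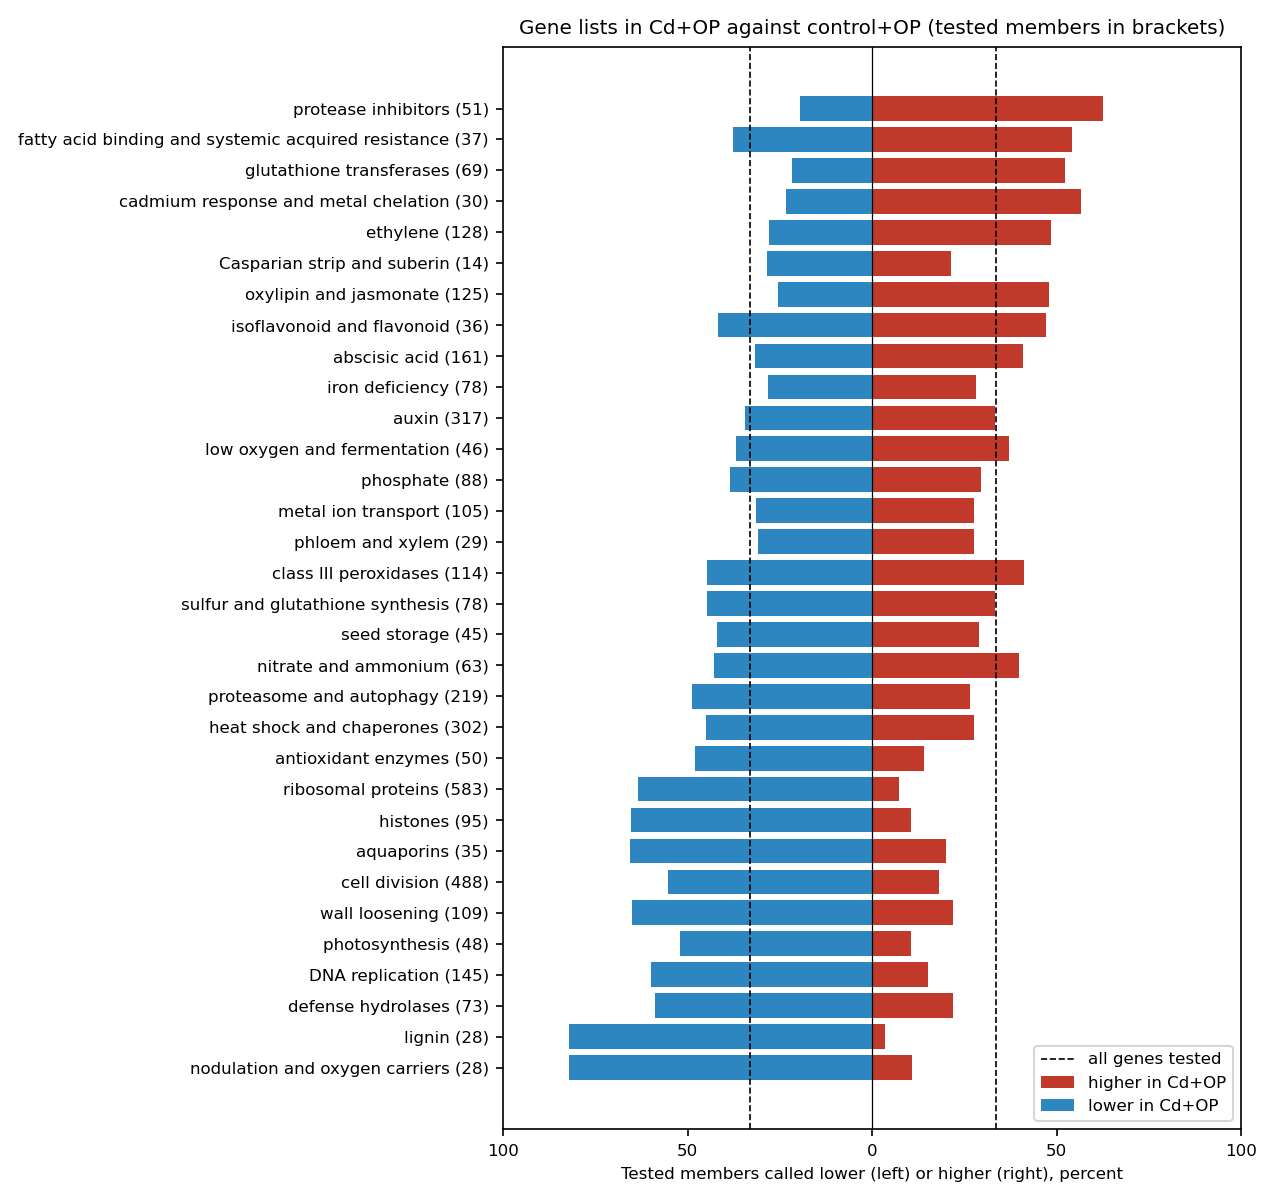
Percent of the tested members of 32 gene lists called lower (left bars) or higher (right bars) in Cd+OP against control+OP, in order of the median log2 fold change, with the shares of all genes tested as dashed lines at 33.1% and 33.6%. The nodulation and lignin lists reach 82.1% lower, and protease inhibitors reach 62.7% higher.

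Water channels were mostly lower in Cd+OP. Of 35 tested aquaporins 23 were lower (65.7%), 7 of them at least 2-fold, and 7 were higher (20%), with a median log2 change of -0.29. GLYMA_03G185900, of the vacuole membrane, had 293, 310.1 and 309.9 FPKM in Cd+OP, against 604, 569.9 and 598 FPKM in control+OP (-1.03 ± 0.036, edgeR adjusted p = 8.05e-18). GLYMA_05G208700, a plasma membrane channel annotated to water deprivation, had 28.8, 26.9 and 29.8 FPKM in Cd+OP, against 55.9, 53.9 and 56.7 FPKM in control+OP (-1.03 ± 0.049, edgeR adjusted p = 2.08e-15). GLYMA_16G155000 changed by -0.89 ± 0.035, and each control+OP library exceeded each Cd+OP library in all 3. Phloem and xylem genes showed no common direction (8 of 29 higher, 9 lower). The phloem development genes GLYMA_02G000700 and GLYMA_10G000500 fell by 1.05 ± 0.053 and 0.73 ± 0.047 on the log2 scale.

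Photosynthesis genes, which mark green tissue, leaned lower, and seed storage genes were divided. Of 48 photosynthesis genes 25 were lower (52.1%) and 5 higher (10.4%), with a median log2 change of -0.42. The photosystem I gene GLYMA_05G022900 had 2.34, 1.73 and 2.03 FPKM in Cd+OP, against 7.197, 6.47 and 7.37 FPKM in control+OP (-1.86 ± 0.16, edgeR adjusted p = 1.69e-10), and the oxygen-evolving complex gene GLYMA_20G098500 rose (6.45, 6.67 and 6.47 FPKM in Cd+OP, against 1.73, 1.65 and 1.46 FPKM in control+OP; log2 1.94 ± 0.099). Of 45 seed storage genes 19 were lower and 13 higher, with sums of 1076 to 1087 FPKM in Cd+OP and 1166 to 1205 FPKM in control+OP. The nutrient reservoir gene GLYMA_17G049800 had 2.29, 3.34 and 3.79 FPKM in Cd+OP, against 65.4, 65.1 and 63.3 FPKM in control+OP (-4.43 ± 0.19, edgeR adjusted p = 4.14e-16). It had the same profile over the 12 libraries as the leghaemoglobins, high in control+OP alone. The acid phosphatase GLYMA_08G200200, with the reservoir term, had 43.01, 41.02 and 43.7 FPKM in Cd+OP, against 182, 178 and 181 FPKM in control+OP, a change of -2.16 ± 0.11. The part of green or seed tissue in the other differences was not tested.

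Hormone genes leaned higher in Cd+OP than in control+OP for ethylene and jasmonate, but not in Cd against control. There 45 of 128 ethylene genes were higher and 61 lower, and 29 of 125 oxylipin and jasmonate genes were higher and 81 lower. Among all genes tested 37.6% were higher and 38.7% lower in Cd against control. The values that follow are for Cd+OP against control+OP. Of 128 ethylene genes 62 were higher (48.4%) and 36 lower (28.1%), with a median log2 change of 0.23. The ethylene-responsive transcription factor GLYMA_08G145300 had 126, 123 and 123 FPKM in Cd+OP, against 58.6, 55.4 and 58.6 FPKM in control+OP (1.03 ± 0.035, edgeR adjusted p = 3.08e-18). GLYMA_05G186700, of the same annotation, had 175, 176 and 169.9 FPKM in Cd+OP, against 78.2, 77.2 and 80.6 FPKM in control+OP (1.07 ± 0.036, edgeR adjusted p = 4.29e-18). Both had separate groups. Of 125 oxylipin and jasmonate genes 60 were higher (48.0%) and 32 lower (25.6%), with a median of 0.16, yet of the few that were at least 2-fold different 8 were lower and 2 higher. The lipoxygenase-type gene GLYMA_07G006800 rose (203, 205 and 199.7 FPKM in Cd+OP, against 86.8, 89.7 and 86.6 FPKM in control+OP; log2 1.13 ± 0.034), and GLYMA_08G189200, also annotated to lipid oxidation, fell (5.34, 4.77 and 4.85 FPKM in Cd+OP, against 20.96, 21.3 and 21.005 FPKM in control+OP; log2 -2.15 ± 0.076). The allene-oxide cyclase GLYMA_13G047300, a step of jasmonate synthesis, fell as well (log2 -0.95 ± 0.032).

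Abscisic acid and auxin genes were more balanced. Of 161 abscisic acid genes 66 were higher (41.0%) and 51 lower (31.7%). GLYMA_15G145600, annotated to bind abscisic acid and inhibit phosphatases, had 34.7, 37.2 and 30.9 FPKM in Cd+OP, against 9.51, 9.68 and 10.5 FPKM in control+OP (1.72 ± 0.064, edgeR adjusted p = 1.95e-17). The transcription regulators GLYMA_11G216500 and GLYMA_18G040000, annotated to several hormones and to seed dormancy, fell by 1.21 ± 0.048 and 1.12 ± 0.050 on the log2 scale. None of these had overlapping groups. Of 317 auxin genes 106 were higher and 109 lower, at the shares of all genes. In that list GLYMA_15G208600, an auxin exporter of the plasma membrane, had 23.7, 22.8 and 22.2 FPKM in Cd+OP, against 9.81, 11.1 and 10.7 FPKM in control+OP (1.04 ± 0.048, edgeR adjusted p = 1.25e-15). GLYMA_11G087300, an auxin carrier of the endoplasmic reticulum, changed by 1.45 ± 0.059, and the transcription regulator GLYMA_10G180000 by 0.98 ± 0.041.

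Hydrolases of defense were mostly lower in Cd+OP. Of 73 tested glucanase and chitinase genes 43 were lower (58.9%) and 16 higher (21.9%), with a median log2 change of -0.54, and the list summed to 1539 to 1558 FPKM in Cd+OP and 2445 to 2512 FPKM in control+OP. GLYMA_03G132700, a glucanase of the plasma membrane and wall, had 95.6, 98.5 and 98.6 FPKM in Cd+OP, against 694, 688 and 680.4 FPKM in control+OP (-2.89 ± 0.076, edgeR adjusted p = 3.12e-20). GLYMA_02G042500, a chitinase, which cuts a polymer of fungal walls, had 22.1, 22.03 and 22.3 FPKM in Cd+OP, against 61.8, 59.5 and 59.1 FPKM in control+OP (-1.51 ± 0.058, edgeR adjusted p = 4.15e-17). GLYMA_07G261600, another glucanase, changed by -1.25 ± 0.054, and all control+OP libraries exceeded all Cd+OP libraries in these genes. Isoflavonoid and flavonoid genes, which make soybean defense and signal compounds, were split, with 17 of 36 higher and 15 lower. The prenyltransferase G4DT (GLYMA_10G295300), of glyceollin synthesis, had 205, 214 and 211 FPKM in Cd+OP, against 117, 115 and 116 FPKM in control+OP (0.78 ± 0.029, edgeR adjusted p = 2.85e-17). The chalcone synthase CHS7 (GLYMA_01G228700) and the chalcone isomerase CHI1B1 (GLYMA_20G241600), at the head of the pathway, fell by 0.69 ± 0.029 and 0.74 ± 0.037 on the log2 scale. CHS7 belongs to a multigene family whose copies may share reads.

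Chaperone and proteasome genes leaned lower. Of 302 heat shock and chaperone genes 136 were lower (45.0%) and 83 higher (27.5%), with a median log2 change of -0.15. The list summed to 6372.5 to 6466.6 FPKM in Cd+OP, 7173.4 to 7397.4 FPKM in control+OP and 5556.6 to 5842.7 FPKM in control. GLYMA_10G147600, a calcium-binding chaperone of the endoplasmic reticulum, had 107, 105 and 104 FPKM in Cd+OP, against 212, 199 and 203 FPKM in control+OP (-1.04 ± 0.031, edgeR adjusted p = 2.65e-19). The heat shock ATPase GLYMA_17G258700 of the same compartment had 42.2, 42.2 and 41.9 FPKM in Cd+OP, against 82.6, 81.97 and 81.3 FPKM in control+OP (-1.04 ± 0.032, edgeR adjusted p = 7.65e-19). The heat shock transcription factor GLYMA_19G137800 rose, with 22.5, 23.7 and 23.2 FPKM in Cd+OP, against 7.87, 6.93 and 7.17 FPKM in control+OP (1.59 ± 0.054, edgeR adjusted p = 3.73e-18). The groups were separate in all 3. Of 219 proteasome and autophagy genes 107 were lower (48.9%) and 58 higher (26.5%), none of the lower ones by as much as 2-fold. The AAA ATPase GLYMA_10G057100, of protein extraction from the endoplasmic reticulum, and the proteasome regulatory genes GLYMA_06G289400 and GLYMA_12G117600 fell by 0.81 ± 0.042, 0.70 ± 0.039 and 0.64 ± 0.036 on the log2 scale.

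Mineral nutrition genes were divided, with 25 of 63 nitrate and ammonium genes higher and 27 lower, and 26 of 88 phosphate genes higher and 34 lower. Among the nitrate transporters named by the rule, GLYMA_13G323800 had 7.97, 8.1997 and 9.04 FPKM in Cd+OP, against 22.3, 22.7 and 22.7 FPKM in control+OP (-1.50 ± 0.052, edgeR adjusted p = 5.60e-18), and GLYMA_11G195200 had 5.28, 4.903 and 5.596 FPKM in Cd+OP, against 20.7, 19.4 and 19.2 FPKM in control+OP (-1.98 ± 0.11, edgeR adjusted p = 9.52e-14). The ammonium transporter GLYMA_07G153800 fell by 0.62 ± 0.034. The phosphate gene GLYMA_10G183300, annotated to phosphate starvation and to binding inositol hexakisphosphate, rose, with 48.1, 46.6 and 48.5 FPKM in Cd+OP, against 22.2, 22.5 and 22.9 FPKM in control+OP (1.01 ± 0.038, edgeR adjusted p = 2.30e-17). The malate carrier GLYMA_04G092100 of mitochondria had 28.98, 28.3 and 27.7 FPKM in Cd+OP, against 61.7, 59.5 and 58.2 FPKM in control+OP (-1.15 ± 0.054, edgeR adjusted p = 2.23e-15). Each of these genes had separate groups.

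Genes of small nucleolar RNAs were more often higher than lower, by a count that depended on the method. Of 53 tested small nucleolar RNA genes, whose products guide changes to ribosomal RNA, 27 were higher and 0 lower by edgeR, while 42 were higher with limma on log2(FPKM + 1), 20 with DESeq2, 17 with counts divided by 4 and 17 with no filter on low values, where more genes were tested. By edgeR 33.6% of all genes tested were higher. Their sum was 295.4, 310.1 and 310.1 FPKM in Cd+OP, against 180.4, 170.8 and 171.3 FPKM in control+OP. Of 16 spliceosomal small nuclear RNA genes 8 were higher and 0 lower by edgeR. The 1 tested microRNA precursor, annotated MIR159, had 3.24, 4.64 and 3.21 FPKM in Cd+OP, against 0.385, 0.354 and 0.419 FPKM in control+OP (log2 3.04 ± 0.42, edgeR adjusted p = 6.80e-07). In Arabidopsis miR159 targets transcripts of GAMYB-type transcription factors. Of 253 ribosomal RNA genes 96 were higher, yet their summed level was 2153, 4171 and 2440 FPKM in Cd+OP, against 2591, 2353 and 1999 FPKM in control+OP, so the groups overlapped in the sum. Without Cd+OP replicate 2, the highest library, 93 were higher. Such RNAs are short or lack poly(A) tails, and their levels also depend on the library kit, which no source used here names.

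The effect of Cd with OP was set beside the effect of Cd without OP (Cd against control), which shares no library with it. Without OP, 23132 genes (76.2%) were called and 7570 (25.0%) were called and at least 2-fold different, 2608 higher (8.6%) and 4962 lower (16.4%). The median size of a change was 0.38 log2 units with OP and 0.53 without. The tested difference of both effects, an interaction term, was called for 19381 genes (63.9%), and in 12892 of these (66.5%) the Cd effect was smaller in size with OP. Across the 30340 genes the changes correlated with r = 0.38, a description over genes that are not independent. Of the 1905 genes at least 2-fold lower with OP, 1439 (75.5%) were also called lower without OP, as were 38.7% of all genes tested. Of the 1828 at least 2-fold higher, 1088 (59.5%) were also called higher without OP, as were 37.6% of all genes tested, and 406 (22.2%) were called lower.

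**Figure D4:**
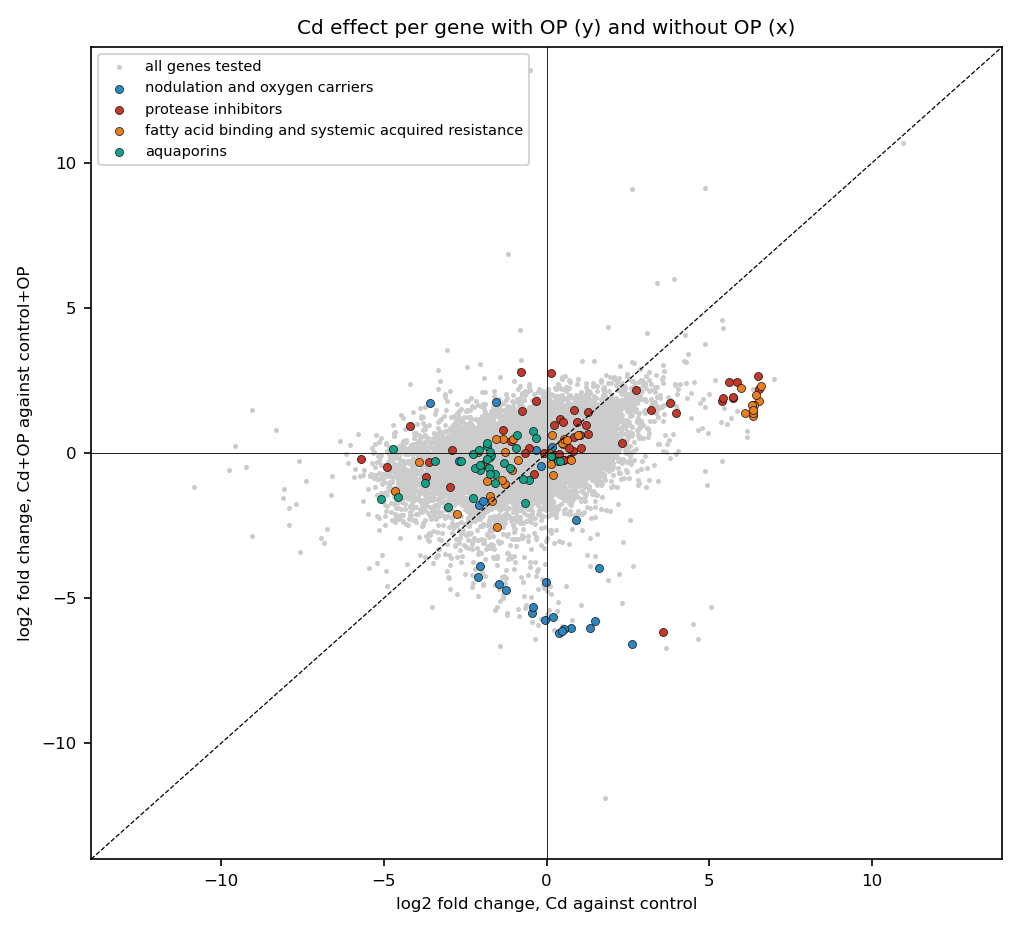
Log2 fold change of each of 30340 genes in Cd+OP against control+OP (y axis) and in Cd against control (x axis), with equal effects on the dashed line. The 20 nodulation and oxygen carrier genes that were at least 2-fold lower on the y axis lie at x from -2.10 to 2.62, 3 of the list were called higher on the y axis, and the leading protease inhibitors and fatty acid binding genes lie at x above 5 and y near 2.

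The leading genes of both directions differed in this respect. Of the 12 highest genes 11 were also called higher in Cd against control, and of the 12 lowest none was called lower there. Each of the 12 lowest averaged under 1 FPKM in control, from 0.020 to 0.965 FPKM. A further fall had little room there, so the count for the lowest genes is a description. The protease inhibitor GLYMA_09G163200 had 431, 434 and 436 FPKM in Cd, against 5.96, 4.17 and 4.29 FPKM in control (log2 6.49 ± 0.072), and the difference of the effects was -3.84 ± 0.11, edgeR adjusted p = 2.57e-20. The fatty acid binding gene GLYMA_18G033200 had 2246, 2392 and 2289 FPKM in Cd, against 38.4, 35.7 and 36.4 FPKM in control (log2 5.97 ± 0.058), with a difference of -3.73 ± 0.071. Both rose under Cd in both settings, and by less with OP. The exporter of cadmium and zinc GLYMA_13G099600 rose by more with OP: it had 18.96, 18.3 and 19.8 FPKM in Cd, against 12.8, 13.8 and 13.4 FPKM in control, and the difference was 1.37 ± 0.074, edgeR adjusted p = 2.22e-14. For this gene the 2 Cd groups were alike in level, 19.6 ± 0.102 FPKM in Cd+OP and 19.01 ± 0.745 FPKM in Cd, and control+OP was the lowest group.

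Several gene lists had effects of Cd that were large without OP and small with it. Aquaporins had a median log2 change of -0.29 with OP and -1.73 without, low oxygen genes -0.03 with OP and -1.17 without, lignin genes -0.62 with OP and -1.97 without, and Casparian strip and suberin genes 0.22 with OP and -4.38 without. The median of the last list with OP ranged from -0.28 to 0.27 over the alternatives. In that list the difference was called higher for 13 of 14 genes, against 33.4% of all genes tested. By sum, low oxygen genes had 4634 to 4903 FPKM in control and 1305 to 1358 FPKM in control+OP. They had 1534 to 1570 FPKM in Cd+OP and 1635 to 1744 FPKM in Cd, so control+OP was already the lowest group. Lignin genes fell in the median without OP, yet their sum was 869.0 to 898.3 FPKM in Cd and 545.3 to 556.3 FPKM in control. The aquaporin GLYMA_05G208700 had 4.23, 3.95 and 4.13 FPKM in Cd, against 55.3, 54.3 and 54.4 FPKM in control, and its difference was 2.69 ± 0.077, edgeR adjusted p = 4.91e-20. Among growth lists, the medians were -0.35 with OP and -0.40 without for cell division, -0.26 with OP and -0.32 without for ribosomal proteins, -0.44 with OP and -0.57 without for DNA replication, and -0.27 with OP and -0.60 without for histones. In cell division, 52 genes were called and at least 2-fold lower with OP and 182 without. Some lists had medians of opposite sign. Oxylipin and jasmonate genes had 0.16 with OP and -0.59 without, cadmium response genes 0.28 with OP and -0.265 without, and ethylene genes 0.23 with OP and -0.08 without. In 20 of 32 lists the median lay nearer to 0 with OP than without.

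**Figure D5:**
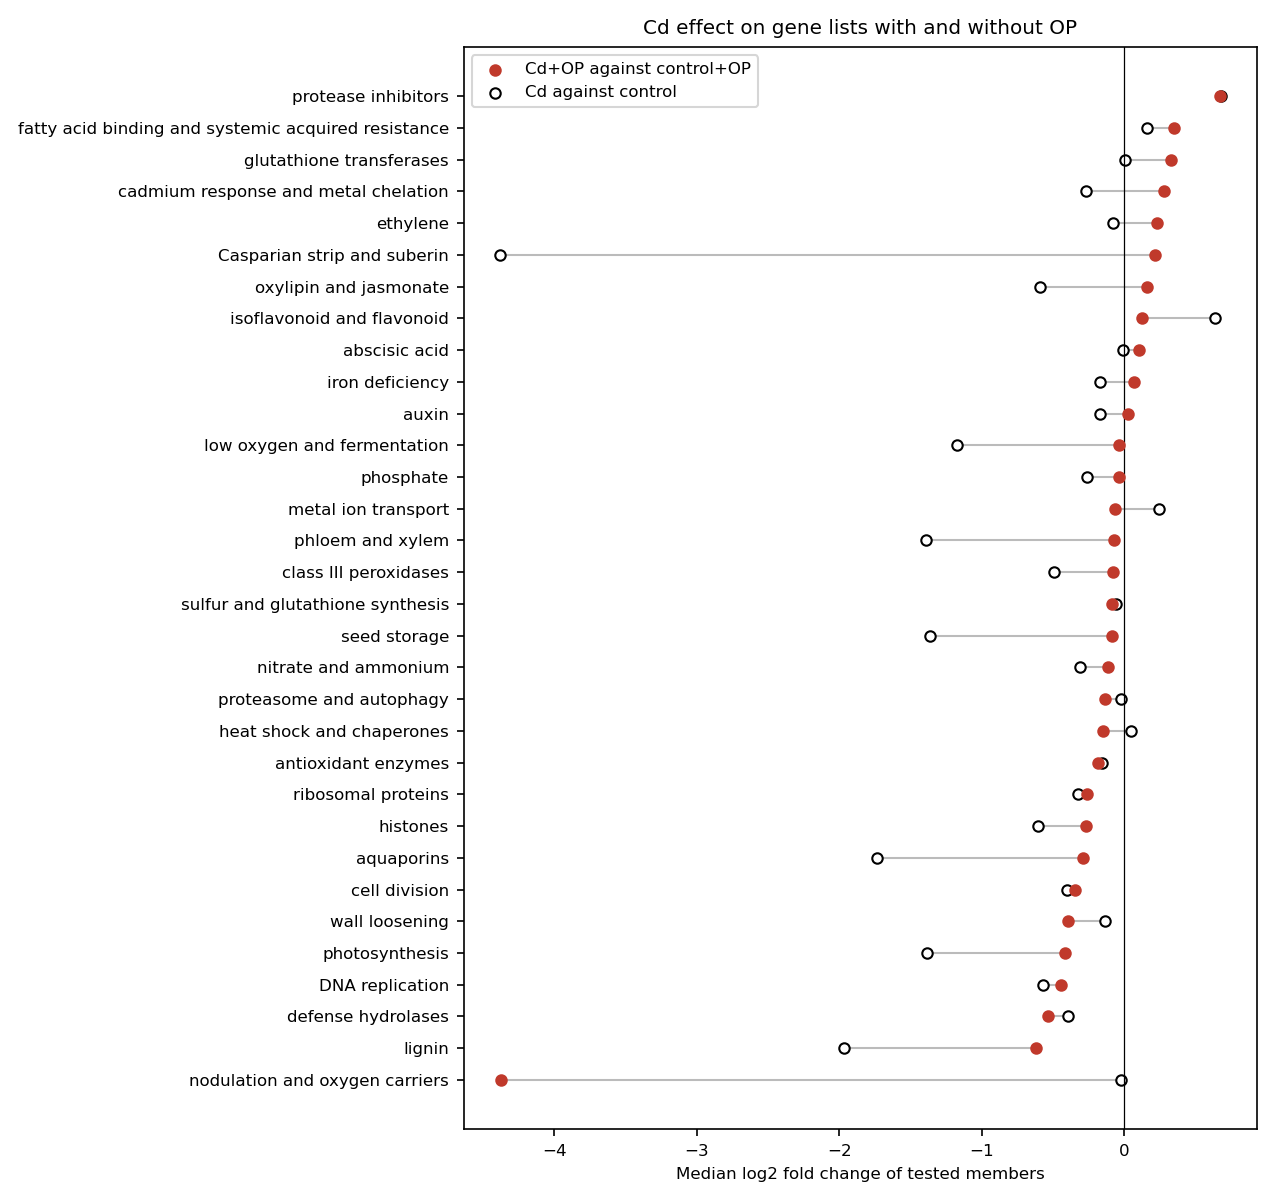
Median log2 fold change of the tested members of 32 gene lists in Cd+OP against control+OP (filled points) and in Cd against control (open points), joined by a grey line. The lists farthest apart are nodulation and oxygen carriers, at -4.37 with OP and -0.02 without, and Casparian strip and suberin, at 0.22 with OP (-0.28 to 0.27 over the alternatives) and -4.38 without.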

How the data were processed

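Root RNA of 12 libraries (4 groups of 3) was sequenced on an Illumina NovaSeq after TRIzol extraction, per the labels. The authors deposited 1 table with FPKM values and expected counts per gene and library. No source used here names the aligner, counter, strand setting, genome build or annotation release. The deposited expected counts are whole numbers but no plain tally, since 10000 values equal 4, against 5019 at 3 and 3231 at 5. Genes whose mean over the 12 libraries reached 1 FPKM were tested with edgeR 4.0.16 in R 4.3.3 (TMM scaling, 1 mean per group over all 12 libraries, quasi-likelihood test, two-sided), with Benjamini-Hochberg adjustment over 30340 genes per comparison and a threshold of 0.05. SE is the log2 fold change divided by the square root of F. The common biological coefficient of variation came to 0.0796 (0.0324 with counts divided by 4), so small changes passed the test. The fit was also run on simulated data in which only a small part of the genes changed. Most genes were called in the data here, so that run is no check for so broad a change.

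The 32 lists were built from Gene Ontology terms and symbols in the table, and lists, members and rules were chosen with earlier results of these data known. Genes were named if they were among the 12 highest or 12 lowest called changes with an annotation, at least 5 FPKM over the 6 libraries and groups that do not overlap, or among the 3 smallest adjusted p of a list; for the difference with and without OP, the 6 highest and 6 lowest that are annotated and reach 5 FPKM over the 12 libraries. Some were left out for length. Alternatives were DESeq2 1.42.0, limma 3.58.1 on log2(FPKM + 1) and log2(FPKM + 0.1), other scaling, other filters, counts divided by 4, the 6 libraries alone, a replicate block and each replicate left out. No gene identifier matched the reference table of gene names, and no sequence is printed.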

Additional observations from a re-analysis of the deposited data

Results flagged for a closer look

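The tested difference between the Cd effect with OP and the Cd effect without OP was called for 19381 of 30340 genes (63.9%) by edgeR. The genes with the lowest and highest values of this difference, by the rule for named genes, follow, and no explanation was tested.

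The rule takes annotated genes that reach 5 FPKM on average in the 12 libraries. Of those, the 6 lowest values belong to nodulation genes: GLYMA_20G024200 at -7.37, the leghaemoglobin LBA (GLYMA_10G199100) at -7.29, the oxygen carrier GLYMA_10G199000 at -6.79, GLYMA_13G364400 at -6.60, GLYMA_15G045000 at -6.60 and GLYMA_14G052400 at -6.59. In GLYMA_20G024200 levels were 2.41, 3.28 and 3.52 FPKM in Cd+OP, against 201, 189 and 188 FPKM in control+OP, and 1.15, 0.615 and 2.604 FPKM in Cd, against 0.0666, 0.875 and 0.812 FPKM in control. Lower values lie outside the rule, among them -9.20 in the nodulation gene GLYMA_19G074000, which is under that level, and -7.45 in GLYMA_02G265500, which has no annotation. In each of the 6 lowest genes under the rule, the 9 libraries outside control+OP were all under 5 FPKM. These 6 genes thus passed the rule through control+OP alone. A low value of the difference had to follow, so their values are only a description. Several of these genes were under 1 FPKM in Cd and control, so the effect without OP rests on few reads.

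Among the highest values, GLYMA_06G088800, a kinase of the chromosomal passenger complex that acts in mitosis, differed by 5.79. It had 6.96, 7.51 and 8.11 FPKM in Cd+OP, against 13.6, 11.7 and 11.9 FPKM in control+OP, and 0.158, 0 and 0.129 FPKM in Cd, against 10.02, 9.39 and 9.24 FPKM in control. Its fall under Cd was thus far larger without OP. GLYMA_10G092800, a dioxygenase, differed by 5.62, with means of 14.8 ± 0.223 FPKM in Cd+OP, 6.06 ± 0.313 in control+OP, 0.416 ± 0.227 in Cd and 9.03 ± 0.896 in control (SD).

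GLYMA_01G131100, an aspartate aminotransferase, differed by 5.54, with means of 18.6 ± 0.721 FPKM in Cd+OP, 3.83 ± 0.374 in control+OP, 2.79 ± 0.303 in Cd and 28.3 ± 1.07 in control. It rose under Cd with OP and fell without. GLYMA_18G231400, a serine peptidase inhibitor, differed by 5.50, with 10.9, 10.04 and 8.78 FPKM in Cd+OP and 10.6, 9.81 and 12.1 FPKM in control+OP, groups that overlap, and a fall under Cd without OP of 5.70 ± 0.21 on the log2 scale. GLYMA_13G199500, a calcium-dependent phospholipid binding protein, differed by 5.25, with 12.1, 12.6 and 11.9 FPKM in Cd+OP, against 9.84, 8.36 and 9.65 FPKM in control+OP.

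GLYMA_02G028600, a metallopeptidase, had the highest value under the rule, 8.07, and 1 library decides it. It had 39.4, 0.1204 and 0.1005 FPKM in Cd+OP, against 0.1102, 0.1097 and 0.0862 FPKM in control+OP, so that Cd+OP replicate 1 alone was high. In the groups without OP it had 15.4, 0.147 and 0.153 FPKM in Cd, against 31.8, 0.116 and 5.03 FPKM in control. Without Cd+OP replicate 1 the difference was 1.25 (edgeR adjusted p = 0.769), without control replicate 1 it was 5.89 (edgeR adjusted p = 0.0513), and over the alternatives it ranged down to that 1.25.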

How the results depend on the processing

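Among genes of at least 5 FPKM (fewer genes tested), 12241 were called (6222 higher, 6019 lower), 1426 at least 2-fold (710 higher, 716 lower); Cd against control gave 13201 and the difference with and without OP 11822. With no filter on low values 6131 were called and at least 2-fold different (3122 higher, 3009 lower). Limma on log2(FPKM + 1), which shrinks changes of low genes, gave 2018 (979 higher, 1039 lower). With each replicate left out in turn, called genes ranged over 19083 to 19281 (higher 9562 to 9659, lower 9499 to 9622), 2-fold genes over 3745 to 3805 (higher 1832 to 1889, lower 1903 to 1969), Cd against control over 21970 to 22208 and the difference over 18556 to 18876. DESeq2 called 20422 genes. Same-numbered libraries of Cd+OP and control+OP deviated together with correlations of 0.0058, 0.0113 and 0.0182, against -0.0301 to 0.0194 for unlike numbers. What same-numbered libraries have in common is not given in the labels. With the replicate block 20145 were called. Of the 20229 called genes 0 took the other sign under any of the 15 alternatives of this comparison that tested them. The call of GLYMA_02G028600 in the difference was lost with limma (log2 2.85 and 4.31), without Cd+OP replicate 1 (1.25) and without control replicate 1 (5.89), and none of the other 121 genes chosen by the rule lost its call. List medians took both signs for 6 lists: Casparian strip and suberin (-0.28 to 0.27), phloem and xylem, class III peroxidases, low oxygen, metal ion transport and phosphate, so no direction is given for them. Depth bears on precision: once counts were divided by 4, pairs of libraries within groups gave gene-wise chi-square medians of 0.542 to 0.611, against 0.455 from counting alone. Limma on log2(FPKM + 0.1) called 2044 genes at least 2-fold higher and 1571 lower, against 1828 and 1905 by edgeR.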

Other observations

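Rows of neighbouring tested genes that were all called and at least 2-fold different in the same direction were looked for after the values were seen, and 8 rows of at least 5 genes were found. Besides the protease inhibitors, fatty acid binding genes, peroxidases and secondary wall genes described above, 6 genes on chromosome 13 (35846708 to 35893009) were higher in Cd+OP than in control+OP, with a median log2 change of 1.52, and 5 of them carry defense response and extracellular terms. On chromosome 17, 6 genes without a specific annotation (11341525 to 11379195) were lower, with log2 changes of -2.74 to -1.36. On chromosome 5, 5 such genes (5275888 to 5332589) were lower, with a median of -2.27, and on chromosome 10, 5 such genes (50636821 to 50651850) were higher, with a median of 1.70. Neighbours in a row may be copies that share reads, which was not tested.

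Ribosomal RNA genes made up 92 of the 1828 genes called and at least 2-fold higher, and 252 of the 253 tested ones lie on chromosome 13. With them, 8.94% of the tested genes of chromosome 13 were at least 2-fold higher in Cd+OP, and without them 5.87%. Among all genes tested the share was 6.03%, which still includes the ribosomal RNA genes and so is no like measure for the 5.87%.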
